A study of Mus musculus with 13 samples.

Results

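The proteasome genes described here are the rows of a mouse gene count table whose symbol begins with Psm, then a letter from a to g, then a number. The rule took 51 of 24470 rows. Of these, 49 passed edgeR's filter on low counts, which kept 12523 genes in all, and 46 had a mean of at least 10 counts per 1000000 (CPM) over the 5 mRNA libraries. Psmb8 and Psmb11 did not pass the filter and were not tested. 2 of the names are not counted here as parts of the proteasome: Psmc3ip is a factor of meiotic recombination, and Psme3ip1 is a binding partner of the activator Psme3. Other names belong to the proteasome but not to the subunits of its core or cap. These are the assembly chaperones Psmd5, Psmd9, Psmd10 and Psmg1 to Psmg4, the Psme activators and the inhibitor Psmf1. Psme2b is a close copy of Psme2, so reads of these genes could be split between them.

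The proteasome is the protease complex that degrades proteins marked with ubiquitin. Its barrel, the 20S core, is a stack of rings of alpha (Psma) and beta (Psmb) subunits, with the catalytic sites of some beta subunits facing the inside. The 19S cap holds a ring of ATPases (Psmc), which unfold a substrate and thread it into the core, and non-ATPase subunits (Psmd), which bind the substrate and remove its ubiquitin. Inducible catalytic subunits, best known from immune cells and cells treated with interferon, can take the place of the constitutive ones and form the immunoproteasome.

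All libraries came from E14 cells, an established line of mouse embryonic stem cells of 129/Ola origin that was kept in serum with leukemia inhibitory factor (LIF). The labels name no treatment and no genetic change. In the low-input ATAC and mRNA protocol, cells are permeabilised, the transposase Tn5 cuts their open chromatin, and mRNA is then captured from the same lysate on oligo(dT) beads, so that each sample gives an ATAC library and an mRNA library. Experiment 1 gave mRNA libraries from 10000 and 20000 cells, and experiment 2, on another day, from 5000, 10000 and 20000 cells. Their total counts ran from 13727122 to 20426252. The 8 ATAC peak lists cover the same 5 samples and 3 Omni-ATAC libraries, made by a separate protocol without mRNA, from 5000, 10000 and 50000 cells. The summed CPM of 8 embryonic stem cell markers, Pou5f1 and Nanog among them, lay between 2980.2 and 3223 in the 5 mRNA libraries, of which Dppa5a gave 1469 to 1673. Of the 8, Zfp42 and Klf4 rose in experiment 2 (edgeR adjusted p = 0.0282 and 0.0381). Where 5 CPM values follow a gene name, their order is experiment 1 with 10000 and 20000 cells, then experiment 2 with 5000, 10000 and 20000 cells. CPM were not divided by gene length, so they are compared between libraries and not between genes.

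The promoters of 7 members are shown because later results turn on them: Psmb9, Psmb3 and Psmd6 had the 3 smallest adjusted p-values between experiments, Psma6, Psmb10 and Psmg3 had no peak at their 5′ end in the count table in any ATAC list, and Psma5 had a peak in all 8. Each line gives the 100 bases before a RefSeq transcription start (GRCm38.p6), 5′ to 3′ on the strand of the gene. Capitals mark complete matches of the motifs described with the promoter peaks.
Psmb9 (chr17:34187331-34187430, minus strand): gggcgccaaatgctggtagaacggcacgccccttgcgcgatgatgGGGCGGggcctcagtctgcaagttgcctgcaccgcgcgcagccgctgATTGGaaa
Psmb3 (chr11:97703334-97703433, plus strand): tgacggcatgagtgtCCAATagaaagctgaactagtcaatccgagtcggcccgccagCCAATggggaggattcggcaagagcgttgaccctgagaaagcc
Psmd6 (chr14:14120946-14121045, minus strand): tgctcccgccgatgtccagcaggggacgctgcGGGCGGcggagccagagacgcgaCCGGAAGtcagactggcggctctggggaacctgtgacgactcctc
Psma6, upstream start (chr12:55384122-55384221, plus strand): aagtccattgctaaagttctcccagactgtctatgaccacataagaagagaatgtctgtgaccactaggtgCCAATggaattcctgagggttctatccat
Psma6, downstream start (chr12:55398725-55398824, plus strand): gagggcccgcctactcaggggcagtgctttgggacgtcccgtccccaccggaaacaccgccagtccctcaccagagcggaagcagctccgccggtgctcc
Psmb10 (chr8:105938393-105938492, minus strand): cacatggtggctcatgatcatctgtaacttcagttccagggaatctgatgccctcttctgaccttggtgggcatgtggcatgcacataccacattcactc
Psmg3 (chr5:139826895-139826994, minus strand): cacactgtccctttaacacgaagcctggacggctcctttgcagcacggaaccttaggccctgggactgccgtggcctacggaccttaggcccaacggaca
Psma5 (chr3:108256826-108256925, plus strand): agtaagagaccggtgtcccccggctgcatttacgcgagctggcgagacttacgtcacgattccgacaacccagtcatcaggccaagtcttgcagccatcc
In Psmb9 the capitals are a match of the Sp family motif and a match of the NF-Y motif near the start. Psmb3 holds 2 NF-Y matches, and Psmd6 holds an Sp and an ETS match. The upstream Psma6 start has 44% G and C in these 100 bases and the downstream one has 70%. The Psmb10 bases, at 50%, and the Psmg3 bases, at 61%, hold no whole match, and neither do those of Psma5 and of the downstream Psma6 start.

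The alpha ring was detected in every library within a narrow range. Psma5 had 699, 692, 689, 727 and 761 CPM, and Psma7 had 774, 687, 808, 727 and 756 CPM. Psma2 was at 507, 544, 502, 581 and 578 CPM, and Psma6 at 466, 430.1, 405, 428 and 444 CPM. For Psma3 the values were 305, 246, 328, 322 and 330.2 CPM, the lowest of them in the library from 20000 cells of experiment 1. Psma1 gave 348, 324, 358, 397 and 400.2 CPM, and Psma4 gave 381, 309, 338, 343 and 349 CPM. Psma1 and Psma3 were higher in all 3 libraries of experiment 2 than in both of experiment 1, and the groups overlapped for the other 5 alpha genes. Of all tested genes, 17.7% were higher without overlap and 23.9% lower. Neither Psma1 nor Psma3 passed the test between experiments (edgeR adjusted p = 0.162 and 0.212).

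The catalytic beta subunits are Psmb5, which carries the chymotrypsin-like activity, Psmb6, with the caspase-like activity, and Psmb7, with the trypsin-like activity. Psmb5 was at 100.2, 90.5, 108, 112 and 107 CPM, Psmb6 at 684, 693, 539, 577 and 596 CPM, and Psmb7 at 244.7, 236.8, 236.1, 236.3 and 232.6 CPM. The CPM of experiment 2 lay above those of experiment 1 for Psmb5 and below them for Psmb6 and Psmb7. None of these passed the test between experiments (edgeR adjusted p = 0.354, 0.179 and 0.894), and for Psmb7 the groups nearly touched. Of the beta subunits without a catalytic site, Psmb3 had 1286, 1180.3, 868, 822 and 795 CPM, Psmb4 774, 772, 662, 703 and 764 CPM, Psmb1 504, 531, 506, 525 and 538 CPM, and Psmb2 323, 282, 377, 322 and 336 CPM. For Psmb3 and Psmb4 every library of experiment 2 was below both of experiment 1, and for Psmb1 and Psmb2 the groups overlapped. Psmb4 did not pass the test (edgeR adjusted p = 0.723). Of all tested genes, 17.7% were higher without overlap and 23.9% lower.

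The inducible and tissue-specific core subunits behaved unlike each other. Psmb10, the inducible counterpart of Psmb7, was at 139, 139.6, 149, 142 and 142 CPM. In this narrow range experiment 2 lay just above experiment 1 (edgeR adjusted p = 0.938). Psmb9, the inducible counterpart of Psmb6, had 11.5, 11.04, 0.895, 1.42 and 4.16 CPM, high in both libraries of experiment 1 and low in all 3 of experiment 2. Psmb8, the inducible counterpart of Psmb5, had 0 counts in 4 libraries and 1 count in the library from 20000 cells of experiment 2. A count of 0 allows up to 3 counts, which is 0.147 to 0.218 CPM at these depths. Psmb11, the thymus subunit, had 0 and 5 counts in experiment 1 and 3, 6 and 0 counts in experiment 2, at or a little above that floor. Psma8, the testis counterpart of Psma7, was at 8.89, 6.83, 7.40, 6.84 and 7.78 CPM, and its groups overlapped.

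Among the cap ATPases, Psmc4 had 282, 307, 295, 295 and 374 CPM, Psmc5 245, 268, 256, 254 and 305 CPM, and Psmc2 195, 251, 206, 235 and 269.5 CPM. Psmc1 had 164, 175, 144, 173 and 179 CPM, Psmc3 102, 117, 84.5, 90.0 and 101 CPM, and Psmc6 108, 101, 89.8, 107 and 101 CPM. Within each experiment the library from 20000 cells was higher than that from 10000 cells for 5 of the 6 ATPases and lower for Psmc6. Psmc3 was lower in every library of experiment 2 than in both of experiment 1, beside 23.9% of all tested genes. It did not pass the test between experiments (edgeR adjusted p = 0.366). The groups overlapped for the other 5 ATPases.

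The non-ATPase subunits include the scaffolds Psmd1 and Psmd2. Psmd1 was at 307, 365, 351, 370.3 and 412 CPM, and Psmd2 at 67.3, 89.4, 63.4, 81.6 and 81.6 CPM. Psmd4, a ubiquitin receptor, had 254, 278, 224, 238 and 232 CPM. Psmd14, the cap's deubiquitinase, had 239.8, 223.0, 186.6, 214.8 and 222.8 CPM, and its partner Psmd7 had 356, 337, 423, 418 and 457 CPM. For Psmd7 all libraries of experiment 2 were above those of experiment 1, and for Psmd4 and Psmd14 all were below. None of these passed the test between experiments (edgeR adjusted p = 0.0512, 0.370 and 0.734), and for Psmd14 the groups nearly touched. Of all tested genes, 17.7% were higher without overlap and 23.9% lower. The structural lid subunits Psmd3, Psmd8 and Psmd13 had 239, 238, 178, 206 and 225 CPM, 182, 158, 144, 165 and 173 CPM, and 110.1, 113, 101, 112 and 129 CPM, respectively. Of these, Psmd3 was lower in all libraries of experiment 2 and did not pass the test (edgeR adjusted p = 0.468). Psmd6, another lid subunit, had 129.5, 131, 188, 208 and 204 CPM, with both libraries of experiment 1 low. Psmd12, also of the lid, had 228, 241, 152, 183 and 179 CPM, with both libraries of experiment 1 high. Psmd11, a lid subunit described at high levels in human embryonic stem cells, had 47.1, 59.5, 67.5, 51.9 and 72.6 CPM, and its groups overlapped.

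The chaperones of cap assembly were Psmd5 with 72.8, 84.04, 77.7, 87.2 and 94.3 CPM, Psmd9 with 37.3, 35.5, 38.9, 35.6 and 38.4 CPM, and Psmd10 with 12.6, 12.0, 17.1, 14.1 and 13.9 CPM. The chaperones of core assembly were Psmg1 with 179, 170.1, 170.3, 174 and 174 CPM, Psmg2 with 95.5, 101, 93.7, 92.2 and 96.2 CPM, Psmg3 with 47.9, 56.5, 45.1, 41.1 and 45.7 CPM, and Psmg4 with 168, 178, 195, 183 and 154 CPM. Only Psmd10 (higher) and Psmg3 (lower) of these 7 chaperones had CPM in experiment 2 that did not overlap with experiment 1, beside 17.7% of all tested genes higher and 23.9% lower. Of the activators that open the core in place of the cap, Psme1 had 59.2, 52.9, 56.1, 55.6 and 44.0 CPM and Psme2, its partner, had 28.9, 30.9, 37.1, 36.0 and 33.3 CPM. Psme3, the nuclear activator, had 81.2, 85.4, 61.4, 60.9 and 71.1 CPM, and Psme4, an activator of a single chain, had 45.2, 39.7, 30.6, 51.5 and 50.8 CPM. Psme2 was higher and Psme3 lower in all libraries of experiment 2, and Psme1 and Psme4 overlapped. Psme2b had 8 to 50 counts a library, which is 0.583, 1.67, 1.31, 0.838 and 2.45 CPM. Psmf1, a protein that binds and inhibits the core in vitro, had 117, 128, 73.5, 84.9 and 99.5 CPM, with both libraries of experiment 1 above the rest. Psmc3ip had 75.4, 79.8, 76.9, 75.1 and 89.5 CPM, and Psme3ip1 had 69.6, 54.2, 68.5, 75.8 and 78.1 CPM, both with overlap.

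**Figure D1:**
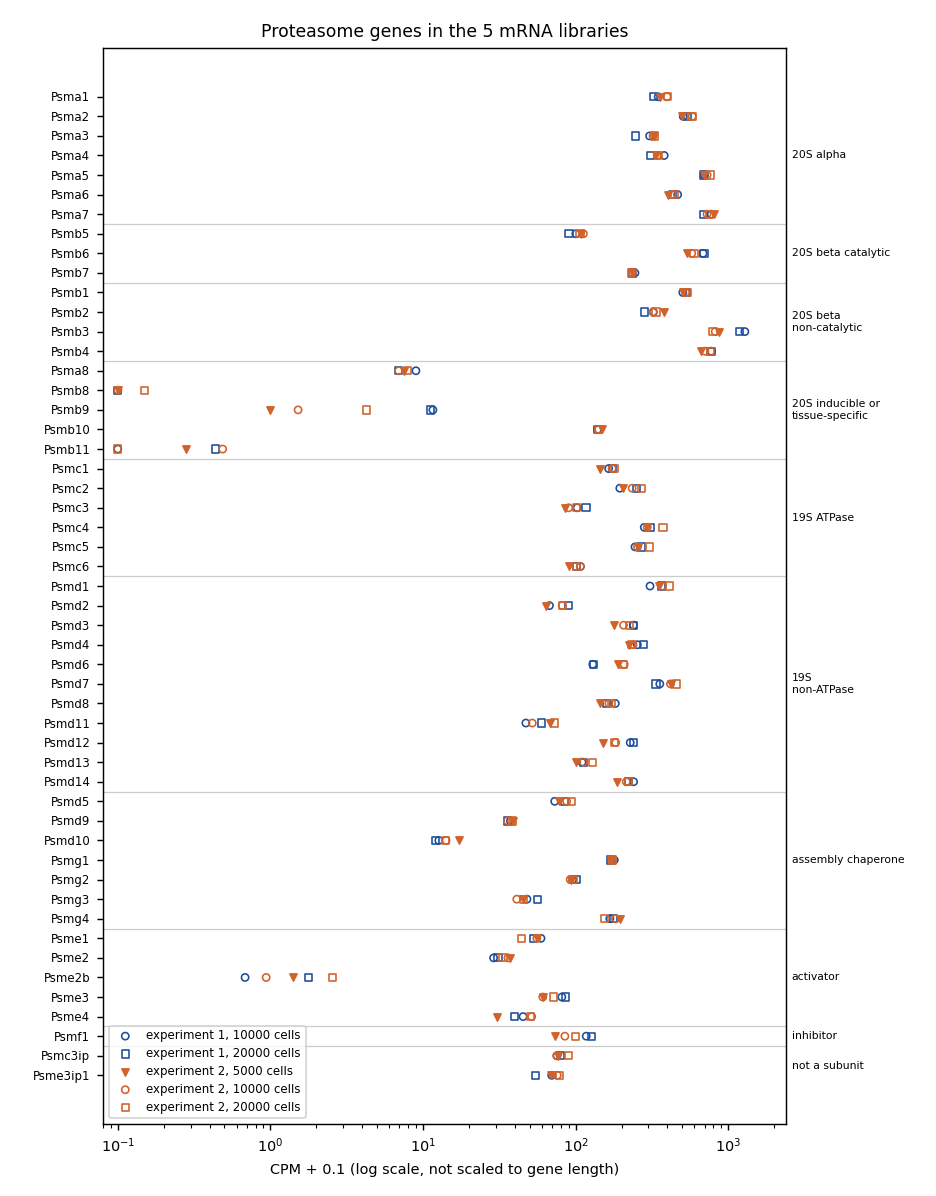
CPM of the 51 proteasome genes in the 5 mRNA libraries, on a log axis after adding 0.1, grouped by role; each symbol is 1 library, blue for experiment 1 and orange for experiment 2. For most genes the 5 symbols lie close together, and Psmb9 is the tested gene whose blue and orange symbols lie farthest apart.

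Members varied little between libraries. The coefficient of variation over the 5 libraries had a median of 9.49% for the 46 members at a mean of at least 10 CPM, with an interquartile range of 7.17% to 12.6%. For all 6485 genes at that level the median was 15.0% (10.4% to 20.8%). The members' median mean was 174.5 CPM and that of all these genes was 35.5 CPM, and the part of this difference in depth was not tested. Together the members took 1.19% and 1.17% of all counts in experiment 1 and 1.11%, 1.14% and 1.19% in experiment 2.

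Experiment 2 was compared with experiment 1, the study's repeat on another day, over the libraries from 10000 and 20000 cells (2 against 2). Psmd6 rose, and Psmb3, Psmb9, Psmd12 and Psmf1 fell. These 5 are of 49 members tested, beside 12.5% of all 12523 genes called by the same edgeR quasi-likelihood test with Benjamini-Hochberg adjustment at 0.05. By direction the background was 5.75% higher and 6.76% lower. At an unadjusted p under 0.05 there were 10 members, beside 25.7% of all genes. The median log2 fold change of the 49 was 0.03, with 28 above 0 and 21 below, beside 0.00 over all genes. CPM of the 5 libraries did not overlap for 8 members higher in experiment 2, beside 17.7% of all genes, and for 13 lower, beside 23.9%. The members' counts lie near these backgrounds. The libraries of an experiment share a day, and nothing says whether they came from separate cultures, so the p-values rest on the spread between same-day libraries.

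Psmb9 (gene ID 16912, chr17:34182099-34187330, minus strand, mm10) showed the largest change of the members tested. It went from 11.3 ± 0.33 CPM (SD, n = 2) in experiment 1 to 2.79 ± 1.94 CPM (SD, n = 2) in experiment 2. The log2 fold change was -1.98 ± 0.37 (SE), with an edgeR adjusted p of 0.000577. The counts were 158 and 165 in experiment 1 and 15, 22 and 85 in the libraries from 5000, 10000 and 20000 cells of experiment 2. The libraries of experiment 2 thus also differed among themselves. Without the library from 20000 cells of experiment 2 the log2 fold change was -2.97, without that from 10000 cells it was -1.43, and it passed the threshold both times. In bulk RNA, fewer cells of a type and less RNA per cell cannot be told apart. The summed CPM of 3 marker lists of other cells were also lower in experiment 2. The summed CPM of 5 primitive endoderm markers was 10.2 to 13.8 in experiment 1 and 1.67 to 2.74 in experiment 2. Of these 5, Dab2 (edgeR adjusted p = 0.000264) and Gata6 (0.0131) fell, and Pdgfra did not pass (0.118). Gata4 and Sox17 were not tested. Gata4 had 14 and 2 counts in experiment 1, then 16, 2 and 4, and Sox17 had 2 and 26, then 1, 8 and 9. The summed CPM of 7 fibroblast markers was 31.4 to 34.9 and 7.54 to 10.0, nearly all of it Thy1, which fell (edgeR adjusted p = 6.75e-08). Col3a1 and Lum were at 0 in all libraries, and Col1a2, Postn and Dcn had 8 counts at most. Col1a1 did not pass (edgeR adjusted p = 0.522). For 4 immune markers the sum was 7.16 to 7.21 and 2.74 to 3.22 CPM, with Lyz2 at 0 in all. Ptprc had 0 counts in both libraries of experiment 1 and 13, 3 and 0 counts in experiment 2. Among those 4, Cd74, a partner of MHC class II, fell (log2 fold change -1.54, edgeR adjusted p = 0.0476), and Cd3e did not pass (0.248). The sum of 3 early neural markers moved the other way, from 4.22 to 5.62 CPM in experiment 1 to 11.1 to 14.4 CPM in experiment 2. Of these 3, Pax6 rose from 2 and 0 counts to 93, 108 and 72 counts (edgeR adjusted p = 1.49e-05), and Sox1 and Nes did not pass the test (edgeR adjusted p = 0.485 and 0.434). For 3 mesendoderm markers the sum was 0.364 to 1.27 CPM in experiment 1 and 0.656 to 3.42 CPM in experiment 2. Whether such cells were present, and any link of these markers with the Psmb9 result, was not tested.

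Psmb9 lies head to head with Tap1, which encodes a chain of the transporter that carries peptides to MHC class I molecules. Their 5′ ends are 226 bp apart, and the sequence shown for Psmb9 lies between them. Tap1 had 1.38, 2.14, 0.955, 0.322 and 0.147 CPM, from 32 counts at most. Its log2 fold change was -2.90 ± 0.96 (SE; edgeR adjusted p = 0.0471). The library from 5000 cells, which was not in the fit, lay between experiment 1 and the other libraries of experiment 2. Tap2, which encodes the other chain and lies 17149 bp from the Psmb9 start, had 5, 8, 3, 0 and 1 counts and was not tested. Psmb8 lies between Tap1 and Tap2 and had at most 1 count.

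**Figure D2:**
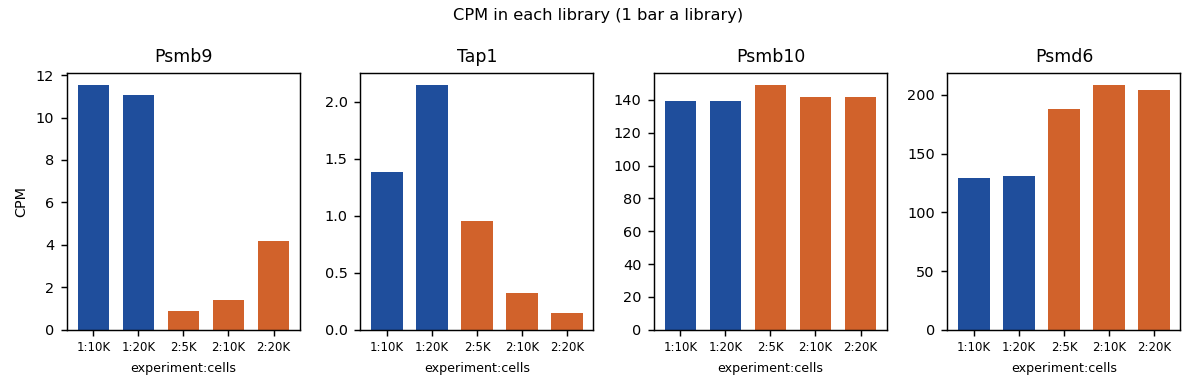
CPM of Psmb9, its head-to-head neighbour Tap1, Psmb10 and Psmd6 in each of the 5 mRNA libraries (1 bar a library, labelled experiment:cells, blue for experiment 1). Psmb9 and Tap1 are highest in the 2 libraries of experiment 1, Psmd6 is lowest there, and Psmb10 stays between 139 and 149 CPM.

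Psmd6 (gene ID 66413, chr14:14112185-14120904, minus strand) was the member that rose, from 130.3 ± 1.2 to 206 ± 2.51 CPM (SD, n = 2 each). The log2 fold change was 0.66 ± 0.12 (SE; edgeR adjusted p = 0.000482). Its 188 CPM in the library from 5000 cells also lay above experiment 1. Psmb3 (gene ID 26446, chr11:97703434-97713500, plus strand) fell from 1233 ± 74.5 to 809 ± 18.7 CPM (SD, n = 2 each), a log2 fold change of -0.61 ± 0.11 (SE; edgeR adjusted p = 0.000379). Both calls, like that of Psmb9, passed the threshold when each of the 4 libraries was left out. Such a fit has 1 library in a group, which is assumed to vary like the 2 of the other group.

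The other 2 calls were near the threshold. Psmf1 (gene ID 228769, chr2:151716062-151741310, minus strand) went from 122 ± 7.25 to 92.2 ± 10.3 CPM (SD, n = 2 each), a log2 fold change of -0.41 ± 0.13 (SE; edgeR adjusted p = 0.0399). Psmd12 (gene ID 66997, chr11:107479528-107498036, plus strand) went from 234 ± 9.11 to 181 ± 2.64 CPM (SD, n = 2 each), a log2 fold change of -0.37 ± 0.12 (SE; edgeR adjusted p = 0.0400). The Psmd12 call was lost whichever library was left out: its edgeR adjusted p was 0.138 and 0.228 without the library from 10000 and from 20000 cells of experiment 1, and 0.108 and 0.15 without those of experiment 2. Its log2 fold change in these fits ran from -0.41 to -0.31, beside -0.37 with all 4. The Psmf1 call was lost without the library from 10000 cells of experiment 1 (adjusted p = 0.0919), without that from 20000 cells of experiment 1 (0.226) and without that from 10000 cells of experiment 2 (0.315), all by edgeR, with log2 fold changes of -0.47, -0.33 and -0.29. Scaling by library size alone also ended the Psmf1 call (0.0519), and testing without a filter on low counts ended both (0.0573 for Psmf1 and 0.0653 for Psmd12). Psmd7 just missed, with 346 ± 13.7 and 438 ± 27 CPM (SD, n = 2 each), a log2 fold change of 0.34 ± 0.11 (SE) and an edgeR adjusted p of 0.0512. Its adjusted p was 0.0161 with DESeq2, and with edgeR it was 0.0463 with RLE size factors, 0.0307 without a filter, 0.0324 over genes of at least 10 CPM, 0.0408 with all 5 libraries, 0.06 by library size alone and 0.0559 with cell number as a block. Leaving out 1 library gave edgeR adjusted p-values of 0.178 and 0.219 without the library from 10000 and from 20000 cells of experiment 1, and 0.0497 and 0.189 without those of experiment 2.

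**Figure D3:**
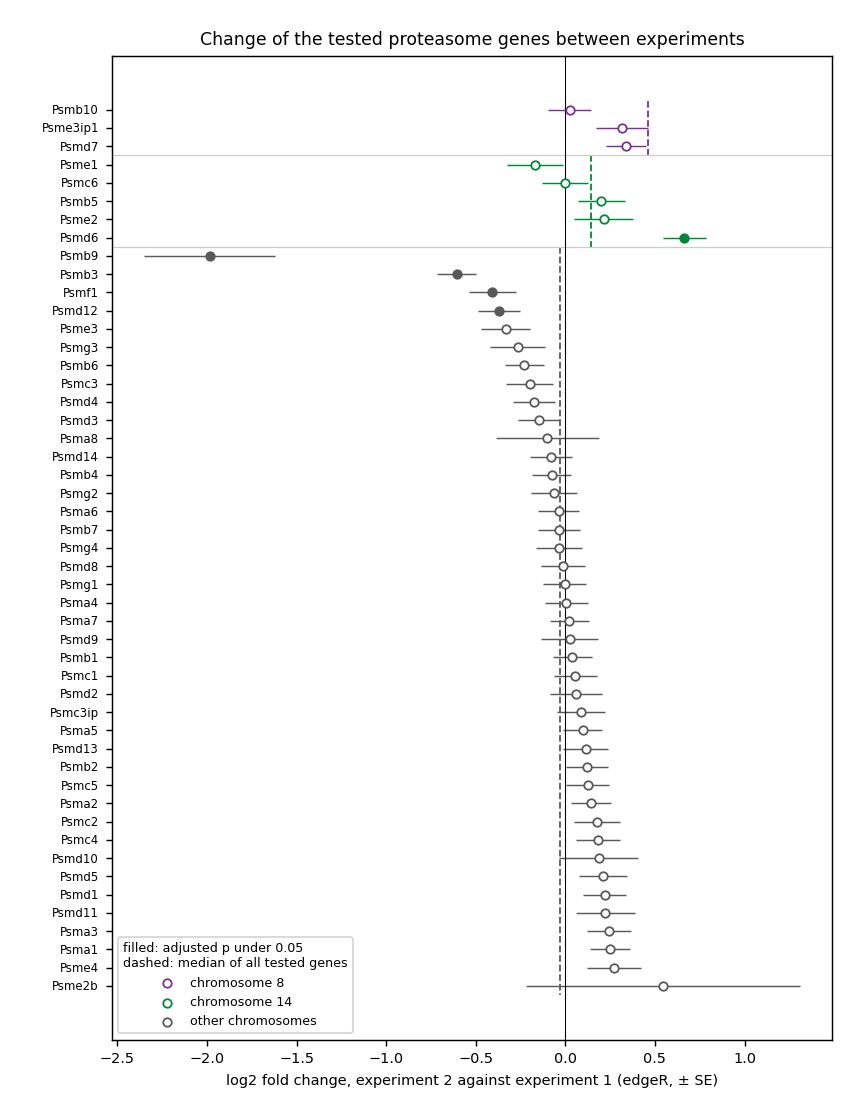
Log2 fold change of the 49 tested proteasome genes, experiment 2 against experiment 1, with the standard error from edgeR; filled points passed the adjusted threshold, and dashed lines mark the median of all tested genes of the same chromosomes. The 5 filled points are Psmd6 on the right and Psmb9, Psmb3, Psmf1 and Psmd12 on the left.

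Chromosomes 8 and 14 were set apart because genes there were more often higher in experiment 2. On chromosome 8, 30.3% of 692 genes were called higher and the median log2 fold change was 0.46. The 3 members there had log2 fold changes of 0.34 (Psmd7), 0.31 (Psme3ip1) and 0.02 (Psmb10), with a median of 0.31, and none was called by the edgeR test, which Psmd7 passed under other settings given above. All 3 were below the median of their chromosome, and Psmb10 was 0.44 below it. Without the library from 20000 cells of experiment 1 their median was 0.16. On chromosome 14, 11.2% of 411 genes were called higher and the median was 0.14. The 5 tested members there had 0.66 (Psmd6), 0.21 (Psme2), 0.20 (Psmb5), -0.0022 (Psmc6) and -0.17 (Psme1), with a median of 0.20. Psme1 and Psme2, partners in 1 activator ring, had log2 fold changes of opposite sign, each with an SE of 0.16 to 0.17 and neither called. Without the library from 20000 cells of experiment 2 both were above 0, at 0.0024 and 0.28. The 41 members on the other chromosomes had a median of 0.02, beside -0.03 over 11420 genes. Chromosome 11 holds 10 members, of which Psmb3 and Psmd12 fell, beside 6.69% of all tested genes of that chromosome called lower.

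The balance between cap and core was read as the summed CPM of the 20 Psmc and Psmd genes over that of the 19 Psma and Psmb genes. The core sum was 7555 and 7176 CPM in experiment 1 and 6881, 6972 and 7141 CPM in experiment 2. The cap sum was 3379 and 3585 CPM, then 3285, 3540.3 and 3864 CPM. The ratio was 0.447 and 0.4995 in experiment 1 and 0.477, 0.508 and 0.541 in experiment 2. Its mean was 0.473 ± 0.037 (SD, n = 2) and 0.509 ± 0.0319 (SD, n = 3), and the groups overlapped. The log2 ratio differed by 0.10 between the experiments, beside a spread between libraries of 0.10 (SD within experiments). It was 0.02 without the library from 10000 cells of experiment 1, 0.18 without that from 20000 cells of experiment 1, and 0.059 without the library from 20000 cells of experiment 2. Without Psmb3 and Psmd7, the genes with the highest CPM on their sides, the log2 difference was -0.01, and by the difference of medians of log2(CPM + 1) it was -0.11. Without members on chromosomes 8 and 14 the ratio was 0.381 and 0.434, then 0.390, 0.418 and 0.45. Within each experiment the ratio of sums was higher with more cells, over 2 and 3 libraries and without a test. By the difference of medians it was not: in experiment 2 that was -1.27, -0.94 and -0.96 with 5000, 10000 and 20000 cells.

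**Figure D4:**
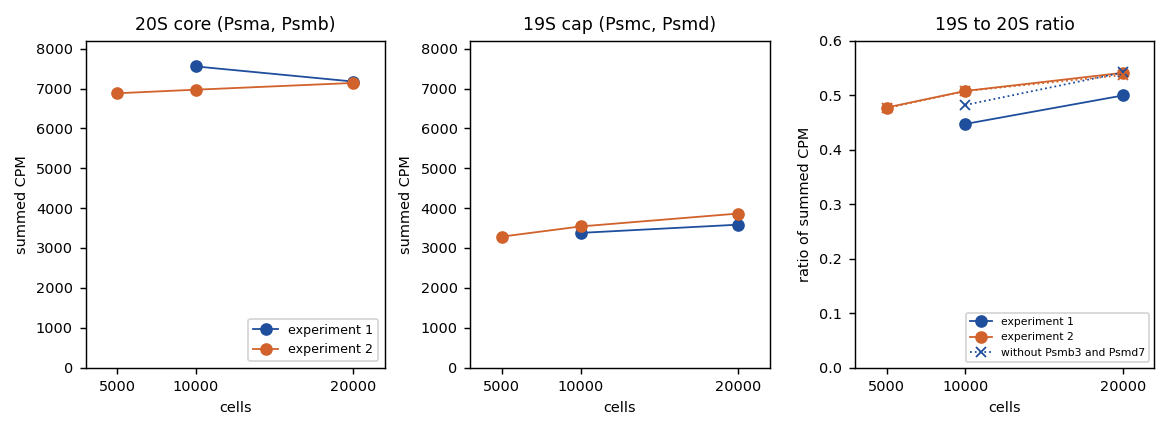
Summed CPM of the 20S core genes, of the 19S cap genes, and their ratio, against the number of cells; each point is 1 library, and crosses with dotted lines give the ratio without Psmb3 and Psmd7. The ratio of summed CPM is higher with more cells in both experiments, which the difference of medians does not show in experiment 2, and without Psmb3 and Psmd7 experiment 1 lies above experiment 2 at 20000 cells.

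The share of an inducible subunit in the counts of its pair gives the change between libraries without the library total. These shares are not per length, and their intervals are 95% Wilson intervals that cover counting error only. Psmb9 made up 1.66% (1.42% to 1.93%) and 1.57% (1.35% to 1.82%) of the Psmb9 and Psmb6 counts in experiment 1. In experiment 2 it made up 0.166% (0.101% to 0.273%), 0.245% (0.162% to 0.371%) and 0.693% (0.561% to 0.856%) with 5000, 10000 and 20000 cells. No interval of experiment 2 reached those of experiment 1, and that of 20000 cells lay above the other 2 of its day. Psmb10 made up 36.3% to 38.7% of the Psmb10 and Psmb7 counts in the 5 libraries. Psmb8 made up none of the Psmb8 and Psmb5 counts in 4 libraries, with an upper Wilson bound of 0.211% to 0.283%, and 0.0459% in the fifth.

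The number of cells moved no member past the threshold. Between 20000 and 10000 cells (2 libraries each), edgeR called 0 of 49 members and 0% of all genes. At an unadjusted p under 0.05 there were 0 members, beside 0.807% of all genes, and DESeq2 called 0 members. This fit counts differences between the experiments as spread. The coefficient of variation that edgeR estimated was 32%, beside 17.1% in the fit between experiments, so changes with cell number could be missed. The series' design text puts the experiments on different days, and with the experiment number as a block edgeR called 0 members and 4 genes in all. The members' log2 differences ran from -0.26 (Psme1) to 0.40 (Psmd11) apart from Psme2b, which rests on few counts. Psmd11 had 47.1 and 59.6 CPM with 10000 and 20000 cells in experiment 1, 51.9 and 72.6 CPM in experiment 2, and 67.5 CPM with 5000 cells, so its levels did not follow cell number in experiment 2. The library from 5000 cells has no replicate. There the 46 members at 10 CPM or more differed from the other 2 libraries of experiment 2 by a median of -0.11 in log2(CPM + 1), beside -0.10 for all 6485 genes. They ran from -0.72 (Psme4) to 0.27 (Psmd10), and 0 of 46 differed 2-fold, beside 0.262% of these genes.

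A list of 30 further genes of the pathway was read in the same fit, 29 of which were tested. It holds cap subunits and bound deubiquitinases, assembly factors, the transcription factors of proteasome genes and the enzymes that process them, shuttle proteins, and ubiquitin itself. Of the 29, edgeR called 1 higher and 0 lower, beside 5.75% and 6.76% of all tested genes, and the list's median log2 fold change was 0.11, beside 0.00 over all genes. The cap subunit Adrm1, a ubiquitin receptor, had a log2 fold change of -0.26, with means of 384 and 319.9 CPM (edgeR adjusted p = 0.155), and the core assembly factor Pomp had -0.22, with means of 305 and 262 CPM (edgeR adjusted p = 0.261). Nfe2l1, the factor that raises proteasome genes when the proteasome is inhibited, was at 9.43 to 15.9 CPM over the 5 libraries. Its log2 fold change was -0.09 ± 0.23 (SE; edgeR adjusted p = 0.868). No gene of the list was called between cell numbers.

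Open chromatin at the members' promoters was read as a peak within 1000 bp of the gene's 5′ end in the count table. The low-input lists had such a peak for 26 and 31 of 51 members in experiment 1 (10000 and 20000 cells) and for 27, 35 and 43 in experiment 2 (5000, 10000 and 20000 cells). Over all 24470 genes the shares were 31.1% and 37.4%, then 31.1%, 40.5% and 50.3%. The Omni-ATAC lists had one for 12, 34 and 46 members with 5000, 10000 and 50000 cells, beside 18.6%, 41.5% and 61.1% of all genes. The list with the fewest intervals, 9097 in the Omni-ATAC list of 5000 cells, had the fewest members, and that with the most, 95457 in the Omni-ATAC list of 50000 cells, had the most. Of the 46 members at 10 CPM or more, the shares in the same order were 54.3%, 65.2%, 56.5%, 73.9% and 87% in the low-input lists, beside 61.7%, 71.2%, 62.7%, 76.9% and 88.8% of all 6485 genes at that level. They were 23.9%, 71.7% and 93.5% in the Omni-ATAC lists, beside 38.8%, 75.9% and 95.7%. In each of the 8 lists the members' share was below that of genes at this level. A peak in all 8 lists was present for 8 of these 46 members (17.4%), beside 32.2% of the 6485 genes. There is 1 list for each protocol, cell number and day, so these shares are given without a test.

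All 8 lists held a peak at Psma4, Psma5, Psmb3, Psmb9, Psmd3, Psmd7, Psme2, Psme3ip1 and Psme4. Psmb9 is the 1 of these 9 below 10 CPM, at a mean of 5.8 CPM, with the Tap1 start 226 bp away. Its peak was present in both experiments, while its CPM differed between them. Psme2 and Psme3ip1 also have a head-to-head neighbour, Rnf31 at 689 bp and Rspry1 at 215 bp. The peak counted for Psme2 was centred at -538 bp (upstream) in the list from 10000 cells of experiment 1. In the Omni-ATAC list of 5000 cells its centre was at -461 bp, and in the rest between -300 and 3 bp. Which gene of a pair such a peak belongs to was not tested. Psmb4, a core subunit at a mean of 735 CPM, had a peak in 2 lists. Psmc1, an ATPase at 167 CPM, and Psme1, at 53.5 CPM, had one in the Omni-ATAC list of 50000 cells alone. Psmd6 had none in either list of experiment 1 and a peak in the other 6 lists, among them all 3 of experiment 2. Its widths in experiment 2 were 9, 84 and 382 bp with 5000, 10000 and 20000 cells, and the lists of experiment 1 hold fewer intervals than those of the same cell number in experiment 2. Psmd12 had a peak in 5 lists and Psmf1 in 6. Many peaks were the shortest interval of 9 bp: 10 of the 26 members' peaks in the list from 10000 cells of experiment 1 and 0 of 46 in the Omni-ATAC list of 50000 cells. With peaks of at least 50 bp alone, 13 members were counted in that list of experiment 1 and 3 in the Omni-ATAC list of 5000 cells.

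**Figure D5:**
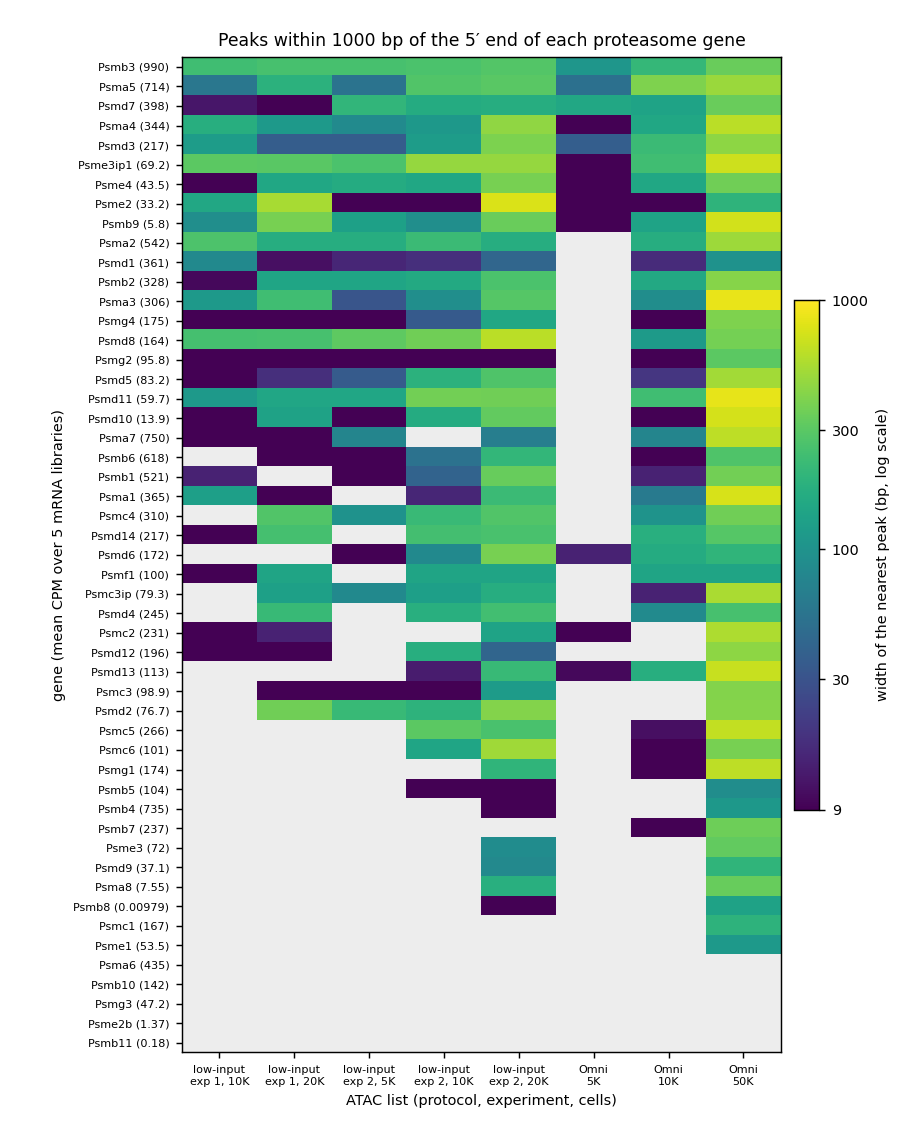
Peaks within 1000 bp of the 5′ end of each of the 51 genes (rows, with the mean CPM over 5 libraries) in the 8 ATAC lists (columns); colour gives the width of the nearest peak in bp on a log scale, and grey means no peak. 9 genes have a peak in all 8 columns and 5 in none, and the Omni-ATAC list of 5000 cells is the emptiest column, with 12.

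Psma6, Psmb10 and Psmg3 had no peak in any list though their means were 435, 142 and 47.2 CPM. Psme2b and Psmb11 also had none, at 1.37 and 0.18 CPM. For Psma6 the count table's 5′ end is the upstream of 2 RefSeq starts. The downstream start, 14603 bp away at position 55398825 of chromosome 12, had a peak within 67 bp in all 8 lists, of 9 to 231 bp in width. The sequences shown above for the Psma6 starts differ in the same way, the start without a peak having fewer G and C. At Psmb10 the nearest peak lay 1170 to 1400 bp downstream of the 5′ end in 7 lists and 33170 bp away in the Omni-ATAC list of 5000 cells. At Psmg3 the nearest peak was 7800 bp away or more in all lists. When any RefSeq start was allowed, an alternative chosen after the Psma6 values were seen, 9 of 46 members had a peak in all 8 lists (19.6%, beside 33.2% of genes), and Psmb10 and Psmg3 were left without one.

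Of the 51 members, 43 had a RefSeq promoter window of 250 bases before to 50 after the start. Their windows had a median of 57.3% G and C, beside 52.7% over all windows. The ETS family motif, CCGGAAG on either strand, was in 16 of 43 members' windows (37.2%), beside 9.93% of all genes with a window and 26% of those at 10 CPM or more. The cap genes among the 16 were Psmc1, Psmc2, Psmc6, Psmd2, Psmd4, Psmd6, Psmd11, Psmd12 and Psmd13. The others were Psma6, Psme3, Psme4, Psmg1, Psmg3, and Psmc3ip and Psme3ip1, which are not parts of the proteasome. No share over all cap genes with a window was computed, so the list shows no preference for the cap. At Psma6 the ETS matches were all at the downstream start, the one with a peak. The nuclear respiratory factor 1 motif was in 7 (16.3%, beside 5.19% and 14.6%). The core of the antioxidant response element, TGACNNNGC, the kind of site that Nfe2l1 and Nfe2l2 bind, was in 6 (14%, beside 14% and 17.1%): Psmb5, Psmb6, Psmc6, Psmd9, Psmd12 and Psme4. NF-Y (CCAAT) was in 37.2%, beside 41.1% and 43.6%, and the Sp family motif (GGGCGG) in 55.8%, beside 38.2% and 72%. YY1 (AAGATGGC) was in 6.98%, beside 3.19% and 7.02%, the TATAAA box in 9.3%, beside 15.7% and 7.93%, and CRE (TGACGTCA) in none, beside 2.03% and 4.31%. Motifs of interferon signalling were added after the Psmb9 values were seen. The interferon-stimulated element was in 5 windows (11.6%, beside 3.99% and 3.25%), those of Psmb3, Psmd4, Psmd9, Psme1 and Psmg4, and the STAT motif, TTCNNNGAA, in 6.98%, beside 9.55% and 8.02%. The Psmb9 window held neither of these 2 motifs. The searches covered both strands, and a match is a description of the sequence.

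Besides Psmb9 and Tap1, 9 members lay head to head with another gene within 1000 bp, which makes 10 of 51. Of the 46 at 10 CPM or more, 19.6% did, beside 17.2% of the 6485 genes. The closest pairs were Psma7 with Ss18l1 (19 bp), Psmd13 with Sirt3 (85 bp) and Psmc2 with Dnajc2 (118 bp). Sirt3, a mitochondrial deacetylase, had 40.4, 34.7, 31.7, 25.5 and 25.5 CPM. It fell (log2 fold change -0.56, edgeR adjusted p = 0.0300), while Psmd13 had a log2 fold change of 0.11 (adjusted p = 0.643). The other partners of the 9 were not called.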

How the data were processed

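The authors deposited read counts per gene, whole and not normalized, for 5 mRNA libraries, with mm10 coordinates and gene IDs per the file headers. For ATAC they deposited intervals without height, score or p-value, 1 list a library and a unified list. The submitters' processing notes name, without roles, cutadapt, Bowtie2 2.1.0, SAMtools 1.3.1, Picard, bedtools 2.24.0, MACS2 2.1.1, STAR 2.5, featureCounts and Subread 1.5.0-p1. The use of strand, the treatment of reads with several matches and the peak threshold are not given in the sources used here, so members that overlap another gene (Psma3, Psma4, Psmb5, Psmc3ip, Psmd1, Psme1 and Psme2b) are uncertain.

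Groups came from the sample titles. CPM are counts scaled to the library's total, 13727122 to 20426252, computed here. Tests used edgeR 4.0.16 (R 4.3.3; TMM, filterByExpr, glmQLFit and glmQLFTest) over all genes of the 4 libraries from 10000 and 20000 cells, with Benjamini-Hochberg adjustment at 0.05. The SE is the size of the log2 fold change over the root of the F statistic. No 2 mRNA libraries agreed within sampling noise: the chi-square per gene of any pair was at least 10.7. DESeq2 1.42.0, other scalings and filters, a block, and leaving out each library were tried. The experiment number pairs libraries across cell numbers, because the series' design text puts each experiment on a day of its own. Over 12523 genes the deviations of same-numbered libraries correlated with r = 0.536, where genes are not independent. The distance of a peak was taken from the 5′ end of the gene in the table. The table's start coordinate, the lower bound of the gene, equalled that of the RefSeq gene table of GRCm38.p6 for 36 of 51 members.

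The members and gene lists were chosen with earlier results of these data known. Named genes are the members called between experiments, members on chromosomes 8 and 14, those of highest and lowest CPM in each role, members at 10 CPM or more without a peak in all 8 lists, and pathway genes called; all members are accounted for. 1 pathway gene that this rule would name is not reported here. Intervals and the floor of 3 counts reflect counting error alone: the labels name no molecular identifiers, and reads may be copies of 1 molecule.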

Additional observations from a re-analysis of the deposited data

How the results depend on the processing

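Of 236 recomputed values over 26 results, 200 kept their direction and their side of the threshold, or stayed within the spread set for them. Between experiments, leaving out 1 library gave 3 to 4 members called, and a further limit of 1 on the size of the log2 fold change left 1, Psmb9. Without a filter on low counts the median log2 fold change of all genes was 0.12, against 0.00. With the replicate block, which uses the shared day, 0 members and 4 genes in all were called between cell numbers, and it changed no call of a member. Psmc6, near 0, changed sign with RLE size factors (0.0049), DESeq2 (0.0048), no filter (0.0222), without the library from 10000 cells of experiment 1 (0.0411) and without that from 20000 cells of experiment 2 (0.0521), and ran from -0.0398 to 0.0521 over the omissions. Psme1 was at 0.0024 without the latter and at -0.3434 without the library from 10000 cells of experiment 2. The median of members on chromosome 14 ran from 0.15 to 0.25 over these omissions, and that on other chromosomes from -0.0127 to 0.0563. The log2 ratio of cap to core, experiment 2 minus experiment 1, was -0.11 by medians and -0.0135 without the gene of highest CPM on each side. With peaks of at least 50 bp, promoter peaks fell to 13 and 19 members in the lists of experiment 1, 15 in that of 5000 cells of experiment 2, and 3 and 22 in the Omni-ATAC lists of 5000 and 10000 cells. The unified list held 30, against 46 in the Omni-ATAC list of 50000 cells. The cause was not tested. The read depth of the ATAC lists is unknown.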
